A study of Mus musculus with 14 samples.

Results

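The genes described here are 57 splicing factors and their kinases, measured in B16-F10 cells, a melanoma line of the mouse strain C57BL/6J. They were listed by name: SR proteins, the kinases that phosphorylate them (the CLK kinases Clk1 to Clk4, Srpk1, Srpk2 and Prpf4b), subunits and partners of the splice site complexes, RNA-binding and RS-rich proteins, core PRPF proteins, hnRNP proteins and DEAD-box helicases. Of the 57 genes, 55 had a probeset of their own, a group of short probes on an Affymetrix array that reports the RNA of a gene, among 12393 genes measured. These 55 had 152 of the 22626 probesets tested. Srsf7 had none listed under its symbol alone, and Snrpa only 1 that carries 3 symbols, so neither was given a value. Where a gene had several probesets, the brightest (the highest mean over all 14 arrays) stood for it in counts, and the others were compared with it.

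The series held 3 arrays of cells given Lipofectamine 2000, a cationic liposome reagent, 3 of heat-shocked cells, 3 of cells given benzyl alcohol, which fluidizes membranes, and 5 of untreated control cells. Lipofectamine was applied for 3 h in Opti-MEM, without plasmid DNA, and followed by 30 min in medium with serum at 37 °C. How the medium of the untreated cells was handled is not given in the sources used here, so liposomes and change of medium cannot be told apart. Heat-shocked cells were kept at 42.5 °C for 1 h and then returned to 37 °C for 30 min. Benzyl alcohol was used at 40 mM for 1 h at 37 °C, and its recovery time is 3 h in one description and 30 min in another. Replicates of each group were labelled as biological. All values are log2 signals produced by RMA, and a log2 difference of -1 is a halving of the signal. In RNA of whole cultures, a lower signal cannot tell fewer cells of a type from less RNA per cell.

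SR proteins bind exons through RNA recognition motifs and recruit U1 and U2 components through domains rich in arginine and serine. CLK kinases in the nucleus and SRPK kinases, largely in the cytoplasm, phosphorylate these domains and so set where SR proteins lie and what they bind. Heat shock is known to stop much of splicing in mammalian cells, and Srsf10 is a known example, since its protein loses phosphate on heating and then represses splicing. Many transcripts of this group also regulate themselves by keeping an intron or including an exon with a stop codon, so probesets of a gene can report different transcripts.

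The control arrays fell apart into arrays 1 and 3 and arrays 2, 4 and 5. The correlations of each array with single control arrays were averaged within each set. For Lipofectamine arrays this average was 0.985 to 0.990 for control arrays 1 and 3 and 0.979 to 0.982 for control arrays 2, 4 and 5. For heat shock arrays the same values were 0.987 to 0.988 and 0.978 to 0.979. Benzyl alcohol arrays went the other way, with 0.978 to 0.981 for control arrays 1 and 3 and 0.987 to 0.990 for control arrays 2, 4 and 5. These are correlations across probesets within arrays, given as a description, and which arrays were handled together is not given in the sources used here. Among the members the 2 sets of control arrays did not overlap in 30 of 55 (54.5%), against 40.4% of all genes, and arrays 1 and 3 were lower by a median of 0.14 (members' median -0.138, beside -0.036 for all genes). The split was read from these same values, so a lack of overlap is partly built in. Each treated group correlated more with a single set, while the control group holds both. In comparisons with control, treatment and the split of control arrays thus cannot be fully told apart. Members called against control are therefore given with all 5 control arrays and without either set. For unlike probesets of a gene and for other splicing genes, the calls that stood without either set are counted. Of 12 melanocyte markers 11 were measured, with mean log2 signals of 6.35 to 13.16, and the 14 markers of keratinocytes, fibroblasts and macrophages had means of 4.25 to 8.13. Melanocyte marker means ranged over 10.41 to 10.49 in Lipofectamine arrays, 10.39 to 10.45 in heat shock arrays, 10.70 to 10.92 in benzyl alcohol arrays and 10.51 to 11.07 in control arrays. Of the 11 melanocyte markers, 3 were called lower after heat shock, Tyr by -0.39 (adjusted p = 0.0415), Sox10 by -0.98 (adjusted p = 0.0135) and Mlph by -0.97 (adjusted p = 0.0221), and Mlph also with Lipofectamine, by -0.95 (adjusted p = 0.0244). Of the 5 macrophage markers Cd68 was higher with benzyl alcohol, by 0.90 (adjusted p = 0.00374), at a mean log2 signal of 5.56. Their part in the results on splicing genes was not tested.

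After heat shock 0 members were higher and 9 were lower than in control cells, where 0.888% of all genes were higher and 4.15% lower. The 9 were Clk2, Srsf5, Srsf10, Sf3a2, Sf3a3, Prpf8, Hnrnpk, Ptbp1 and Ddx17. With Lipofectamine 0 members were higher and 3 were lower, namely Clk2, Sf3a2 and Hnrnpu, where 1.69% of all genes were higher and 3.33% lower. With benzyl alcohol 0 members were higher and 2 were lower, Clk2 and Rsrp1, where 0.726% of all genes were higher and 0.694% lower. Clk2 was thus lower in each of the 3 comparisons, which share the same 5 control arrays. How many of all genes were lower in all 3 was not counted. Calls are limma tests with p-values adjusted (Benjamini-Hochberg) across the 22626 probesets and called under 0.05, and they measure the spread between samples labelled as replicates. At an unadjusted p under 0.05 there were 16 members for Lipofectamine, 22 for heat shock and 10 for benzyl alcohol. The share of all genes at that threshold was not counted, so these 3 counts do not set the members apart from other genes.

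**Figure D1:**
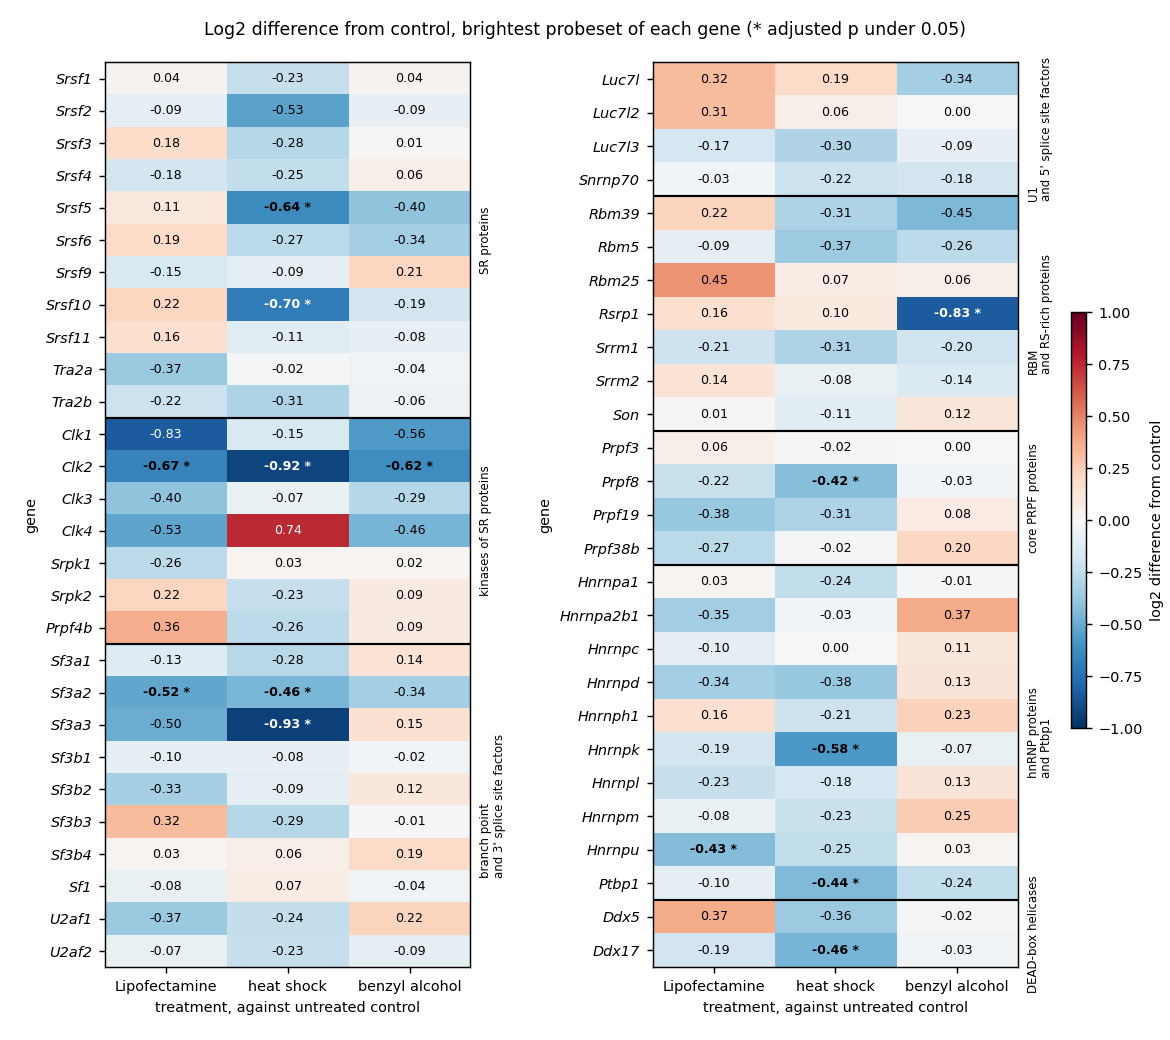
Log2 difference from control (colour and printed value) of the brightest probeset of each of the 55 members, in rows grouped by role, for Lipofectamine, heat shock and benzyl alcohol in columns. Asterisks mark the 3, 9 and 2 members with an adjusted p under 0.05. Most heat shock values are below 0 and Clk2 is marked in every column.

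The median log2 difference of the 55 members after heat shock was -0.23, against 0.04 for all genes, and 47 of the 55 were below 0 (85.5%, against 42.3% of all genes). For Lipofectamine the members' median was -0.10 and that of all genes -0.02, with 34 members below 0. For benzyl alcohol it was -0.02, against 0.02 for all genes, with 32 below 0. Array by array, the members' median deviation from the control mean was -0.18, -0.26 and -0.21 after heat shock. It was -0.05, 0.02 and -0.21 with Lipofectamine, 0.10, -0.11 and -0.02 with benzyl alcohol, and -0.07, -0.05, -0.06, 0.06 and 0.08 in control cells. The heat shock arrays lay below every control array, and so did Lipofectamine array 3 and benzyl alcohol array 2. Another quantile normalization of the deposited values moved the heat shock median to -0.14, with 39 members below 0, beside 0.05 for all genes. It also moved the split of all genes called with heat shock, of which 40.2% were then higher and 17.6% as deposited, and that with Lipofectamine, with 45.5% higher and 33.6% as deposited. The members called were then 0 higher and 7 lower with heat shock, and 2 higher and 3 lower with Lipofectamine.

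**Figure D2:**
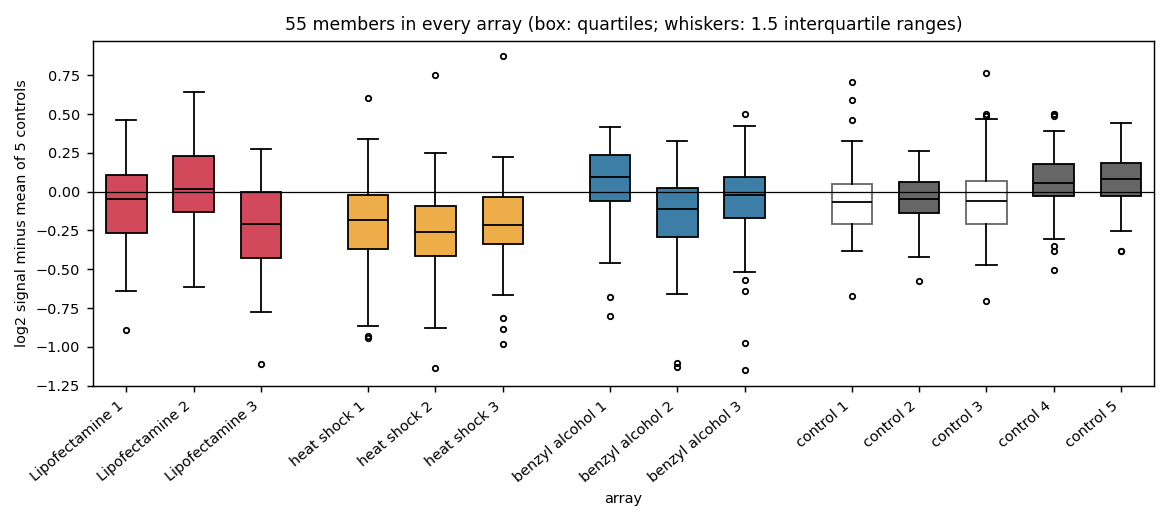
Log2 signal of each of the 55 members minus its mean over the 5 control arrays, 1 box per array (line: median, box: quartiles, whiskers: 1.5 interquartile ranges), coloured by group, with control arrays 1 and 3 in white. The medians of the 3 heat shock arrays, -0.18, -0.26 and -0.21, lie below those of all 5 control arrays, and those of Lipofectamine arrays spread over -0.21 to 0.02.

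These counts moved with the control arrays. So did the shares of all genes called. Without control arrays 1 and 3, 22 members were lower and 1 higher with heat shock, where 12.7% of all genes were lower and 7.89% higher. With Lipofectamine 13 members were then lower and 1 higher, where 10.9% of all genes were lower and 8.09% higher, and with benzyl alcohol 3 were lower, where 1.36% of all genes were. Without control arrays 2, 4 and 5, 4 members were lower with heat shock, where 2.85% of all genes were. With Lipofectamine 5 were then lower and 2 higher, where 3.45% of all genes were lower and 1.32% higher, and with benzyl alcohol 6 were lower and 6 higher, where 8.31% of all genes were lower and 5.13% higher. The heat shock median of the members was -0.29 without the one set and -0.13 without the other, and 43 and 42 of the 55 members were below 0. The count of 9 with heat shock fell to 1, 3 and 2 without heat shock array 1, 2 or 3 and to 4 if control array 4 or 5 was dropped. The count of 3 with Lipofectamine became 1 without Lipofectamine array 1 or 3, and 2 or 6 when control array 4 or 1 was dropped. The count of 2 with benzyl alcohol became 0 without benzyl alcohol array 3 and 1 without control array 1. With single arrays dropped, here and in later comparisons, the share of all genes called was not counted. Such shifts thus cannot be told from shifts over all genes.

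Clk2, a nuclear kinase of SR proteins, was the member lower under all 3 treatments. Clk2 log2 signals were 8.36, 8.39 and 8.26 with Lipofectamine, 8.26, 7.87 and 8.12 after heat shock, 8.55, 8.57 and 8.03 with benzyl alcohol, and 9.16, 8.81, 9.10, 8.98 and 8.97 in control cells. All 9 treated arrays lay below all 5 control arrays, and heat shock array 2 was the lowest. Control arrays 1 and 3 averaged 9.13 and control arrays 2, 4 and 5 averaged 8.92, without overlap. With Lipofectamine Clk2 fell 1.59-fold (log2 difference -0.67 ± 0.11 SE, adjusted p = 0.00453), after heat shock 1.89-fold (log2 difference -0.92 ± 0.11 SE, adjusted p = 0.000636) and with benzyl alcohol 1.54-fold (log2 difference -0.62 ± 0.13 SE, adjusted p = 0.0241). The Lipofectamine difference was -0.58 without control arrays 1 and 3 (adjusted p = 0.00136) and -0.79 without control arrays 2, 4 and 5 (adjusted p = 0.00278). For heat shock it was -0.84 without control arrays 1 and 3 (adjusted p = 4.53e-05) and -1.04 without control arrays 2, 4 and 5 (adjusted p = 0.000426). For benzyl alcohol it was -0.54 without control arrays 1 and 3 (adjusted p = 0.0484) and -0.75 without control arrays 2, 4 and 5 (adjusted p = 0.0059). The calls with Lipofectamine and heat shock stood when any single array was dropped, while that with benzyl alcohol was not made without benzyl alcohol array 3 or control array 1 (highest adjusted p 0.158). Between treatments Clk2 did not pass, with 0.25 ± 0.12 (SE, adjusted p = 0.266) for Lipofectamine minus heat shock and 0.30 ± 0.15 (SE, adjusted p = 0.252) for benzyl alcohol minus heat shock. Its 1 probeset was the only one listed under its symbol.

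The other CLK kinases had a wider gap between the control sets than Clk2. Clk1 shares with Clk4 a close sequence and the role of releasing SR proteins from nuclear speckles. Clk1 log2 signals were 8.34, 8.74 and 8.12 with Lipofectamine, 9.15, 8.99 and 9.09 after heat shock, 8.43, 8.10 and 9.47 with benzyl alcohol, and 9.83, 8.81, 9.70, 8.85 and 8.98 in control cells. The 3 Lipofectamine arrays lay below all control arrays, heat shock arrays lay within the control range, and benzyl alcohol array 3 lay apart from the other benzyl alcohol arrays. Control arrays 1 and 3 averaged 9.76 and control arrays 2, 4 and 5 averaged 8.88. The differences from control did not pass: -0.83 ± 0.23 (SE, adjusted p = 0.0532) with Lipofectamine, -0.15 ± 0.23 (SE, adjusted p = 0.711) after heat shock and -0.56 ± 0.28 (SE, adjusted p = 0.418) with benzyl alcohol. For Lipofectamine the Clk1 difference was -0.48 without control arrays 1 and 3 (adjusted p = 0.0172) and -1.36 without control arrays 2, 4 and 5 (adjusted p = 0.000145), so that it passed with either set of controls but at different sizes.

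Clk4 was the member with the widest gap between the 2 sets of control arrays, at 1.22. Clk4 log2 signals were 7.51, 7.71 and 7.24 with Lipofectamine, 8.62, 8.76 and 8.88 after heat shock, 7.66, 6.91 and 8.09 with benzyl alcohol, and 8.72, 7.43, 8.78, 7.51 and 7.63 in control cells. The heat shock arrays lay above control arrays 2, 4 and 5 and beside control arrays 1 and 3, and none of them overlapped the Lipofectamine or benzyl alcohol arrays. Against all 5 controls the log2 difference was 0.74 ± 0.29 (SE, adjusted p = 0.143) after heat shock, -0.53 ± 0.29 (SE, adjusted p = 0.364) with Lipofectamine and -0.46 ± 0.31 (SE, adjusted p = 0.589) with benzyl alcohol. After heat shock it was 1.23 without control arrays 1 and 3 (adjusted p = 1.84e-06) and 0.01 without control arrays 2, 4 and 5 (adjusted p = 0.979). With Lipofectamine it was -0.04 without control arrays 1 and 3 (adjusted p = 0.898) and -1.26 without control arrays 2, 4 and 5 (adjusted p = 0.000142), and with benzyl alcohol 0.03 without control arrays 1 and 3 (adjusted p = 0.986) and -1.20 without control arrays 2, 4 and 5 (adjusted p = 0.00356). Compared directly, Clk4 was lower with Lipofectamine than after heat shock (log2 difference -1.27 ± 0.32 SE, adjusted p = 0.035) and lower with benzyl alcohol than after heat shock (log2 difference -1.20 ± 0.35 SE, adjusted p = 0.0473). In their correlations heat shock arrays lay nearer control arrays 1 and 3, and benzyl alcohol arrays nearer control arrays 2, 4 and 5. In the second call treatment and that split cannot be told apart. Neither call stood without each of the arrays compared. The one against Lipofectamine was not made without Lipofectamine array 1, 2 or 3 or heat shock array 1, 2 or 3 (highest adjusted p 0.119), and the one against benzyl alcohol not without Lipofectamine array 1, 2 or 3 or heat shock array 1, 2 or 3 or benzyl alcohol array 1 or 2 (highest adjusted p 0.158). A dimmer Clk4 probeset, 1427663_a_at, had 7.60, 7.65 and 7.69 with Lipofectamine, 8.09, 8.22 and 8.56 after heat shock, 7.57, 7.38 and 7.64 with benzyl alcohol, and 8.71, 7.68, 8.14, 7.72 and 7.72 in control cells. Its heat shock arrays were again above the Lipofectamine and benzyl alcohol arrays, and it passed in no comparison with control.

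Clk3, the fourth CLK kinase, passed in none of the 3 comparisons. Clk3 log2 signals were 8.38, 8.62 and 8.35 with Lipofectamine, 8.97, 8.58 and 8.80 after heat shock, 8.57, 8.43 and 8.68 with benzyl alcohol, and 9.18, 8.55, 9.33, 8.55 and 8.65 in control cells. Control arrays 1 and 3 were above every other array, and all treated groups overlapped control arrays 2, 4 and 5. Its differences were -0.40 ± 0.18 (SE, adjusted p = 0.247) with Lipofectamine, -0.07 ± 0.18 (SE, adjusted p = 0.85) after heat shock and -0.29 ± 0.17 (SE, adjusted p = 0.523) with benzyl alcohol. Without control arrays 2, 4 and 5 it would have passed with Lipofectamine at -0.81 (adjusted p = 0.00365) and with benzyl alcohol at -0.69 (adjusted p = 0.00378). Control arrays 1 and 3 averaged 9.25, but control arrays 2, 4 and 5 averaged 8.58. Group means were 8.45 with Lipofectamine, 8.78 after heat shock and 8.56 with benzyl alcohol.

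**Figure D3:**
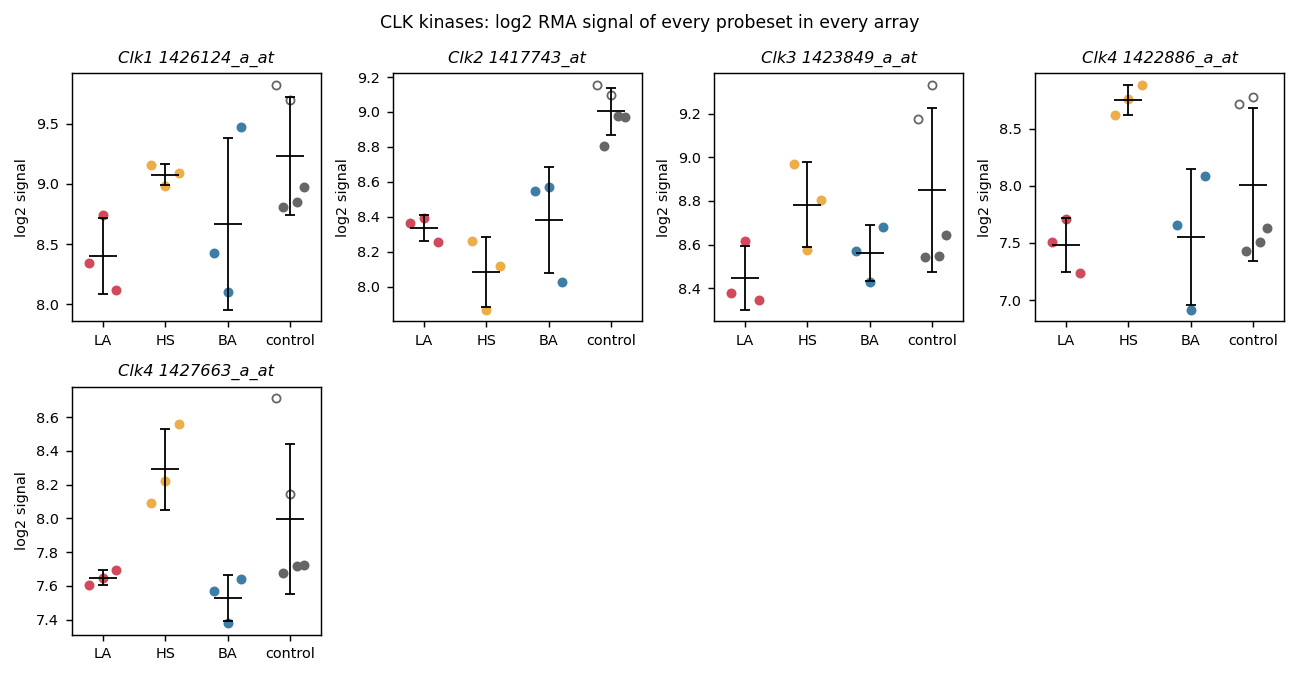
Log2 signal of each CLK probeset in every array (points), with the mean and SD of each group, for Lipofectamine (LA), heat shock (HS), benzyl alcohol (BA) and control, where open circles are control arrays 1 and 3. The Clk2 points of all 9 treated arrays lie below the 5 controls, and in every panel, Clk2 included, the open circles lie above the filled control points.

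The promoters of Clk2 and Clk4 are shown because Clk2 was lower under all treatments and Clk4 differed between heat shock and the other 2. They are the RefSeq windows from 250 bases before to 50 after the start, on GRCm38.p6, with capitals for a cAMP response element, TGACGTCA. The Clk2 window, chr3:89164545-89164844 on the plus strand, holds neither that element nor a heat shock element. The Clk4 window, chr11:51262864-51263163 on the plus strand, holds the cAMP response element from position -65.
Clk2 promoter: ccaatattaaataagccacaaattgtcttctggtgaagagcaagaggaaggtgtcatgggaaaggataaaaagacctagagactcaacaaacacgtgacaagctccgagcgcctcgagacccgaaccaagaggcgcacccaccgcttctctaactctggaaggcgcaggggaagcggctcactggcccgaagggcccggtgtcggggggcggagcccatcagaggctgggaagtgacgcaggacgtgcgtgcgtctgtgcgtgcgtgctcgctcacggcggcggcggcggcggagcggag
Clk4 promoter: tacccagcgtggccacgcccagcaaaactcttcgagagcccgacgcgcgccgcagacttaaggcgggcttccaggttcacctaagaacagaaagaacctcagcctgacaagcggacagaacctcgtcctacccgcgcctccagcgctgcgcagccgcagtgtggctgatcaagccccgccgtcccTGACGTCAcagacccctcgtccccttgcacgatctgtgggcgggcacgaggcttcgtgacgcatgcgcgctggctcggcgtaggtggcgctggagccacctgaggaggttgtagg
Of all 27025 genes with a window 2.03% have one that holds this element, and among the 53 members with a window 3 do, Tra2a, Clk4 and Snrpa. A match describes the letters and not a bound site.

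The kinases outside the CLK family had brightest probesets that passed in no comparison with control. Srpk1 and Srpk2, which load SR proteins with phosphate in the cytoplasm, had -0.26 ± 0.10 and 0.22 ± 0.12 with Lipofectamine and 0.03 ± 0.10 and -0.23 ± 0.12 after heat shock. Prpf4b, a kinase of the tri-snRNP, had 6 probesets that parted, of which 2 were lower after heat shock. On the probeset 1425497_a_at, Prpf4b log2 signals were 8.39, 8.59 and 8.34 with Lipofectamine, 7.16, 7.22 and 7.07 after heat shock, 8.13, 8.11 and 7.40 with benzyl alcohol, and 7.99, 8.14, 7.43, 8.20 and 8.34 in control cells. Every heat shock value was below all other arrays, and against control the log2 difference was -0.87 ± 0.16 (SE, adjusted p = 0.01). This was not called without heat shock array 3 (highest adjusted p 0.0615), and it was -1.07 without control arrays 1 and 3 (adjusted p = 1.69e-06) and -0.56 without control arrays 2, 4 and 5 (adjusted p = 0.0551). The other lower probeset, 1451732_at (log2 difference -0.39 ± 0.09 SE, adjusted p = 0.0314), was -0.43 without control arrays 1 and 3 (adjusted p = 0.00715) and -0.33 without control arrays 2, 4 and 5 (adjusted p = 0.178). The dimmest Prpf4b probeset, 1455696_a_at, had 5.00, 5.23 and 4.66 with Lipofectamine, 5.15, 5.08 and 4.83 after heat shock, 5.68, 4.75 and 5.30 with benzyl alcohol, and 5.31, 5.28, 5.66, 5.35 and 5.53 in control cells. Lipofectamine and heat shock arrays both lay below the controls, with no call. With Lipofectamine this probeset and the brightest one differed in their change (difference of log2 changes -0.83 ± 0.22 SE, adjusted p = 0.0469), with -0.46 against 0.36.

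Among the 11 SR proteins measured, set against control, 0 passed with Lipofectamine or with benzyl alcohol and 2 were lower after heat shock, while all 11 were below 0 there with a median log2 difference of -0.27. Srsf5, an SR protein that binds exonic enhancers, was 1 of the 2. Srsf5 log2 signals were 12.08, 11.98 and 11.79 with Lipofectamine, 10.91, 11.46 and 11.24 after heat shock, 11.67, 11.32 and 11.33 with benzyl alcohol, and 11.89, 11.78, 11.82, 11.81 and 11.91 in control cells. All heat shock arrays lay below the controls, as did the benzyl alcohol arrays by less. After heat shock Srsf5 fell 1.55-fold (log2 difference -0.64 ± 0.12 SE, adjusted p = 0.00922), and this was -0.63 without control arrays 1 and 3 (adjusted p = 0.0019) and -0.65 without control arrays 2, 4 and 5 (adjusted p = 0.0289). It was not called without heat shock array 1 (highest adjusted p 0.0501). With benzyl alcohol the log2 difference was -0.40 ± 0.12 (SE, adjusted p = 0.131), and with Lipofectamine 0.11 ± 0.12 (SE, adjusted p = 0.729).

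Srsf10 is the SR protein known to repress splicing when it loses phosphate on heating. Srsf10 log2 signals were 8.53, 8.46 and 8.15 with Lipofectamine, 7.30, 7.74 and 7.35 after heat shock, 8.44, 7.66 and 7.83 with benzyl alcohol, and 7.98, 7.97, 7.84, 8.43 and 8.58 in control cells. No heat shock array overlapped the controls, although benzyl alcohol array 2 lay below heat shock array 2. Srsf10 fell 1.63-fold (log2 difference -0.70 ± 0.17 SE, adjusted p = 0.0322), and the call was not made without heat shock array 1, 2 or 3 or control array 4 or 5 (highest adjusted p 0.144). The difference was -0.87 without control arrays 1 and 3 (adjusted p = 0.000585) and -0.45 without control arrays 2, 4 and 5 (adjusted p = 0.123). Of its 4 probesets 2 were lower, and the difference on the other of these, 1423982_at (log2 difference -0.50 ± 0.14 SE, adjusted p = 0.0492), was -0.65 without control arrays 1 and 3 (adjusted p = 0.000767) and -0.27 without control arrays 2, 4 and 5 (adjusted p = 0.305). The probeset 1449121_at, at 7.24, 7.24 and 7.52 with Lipofectamine, 7.52, 7.71 and 7.52 after heat shock, 7.83, 7.73 and 7.74 with benzyl alcohol, and 7.36, 7.79, 7.41, 7.80 and 7.59 in control cells, overlapped the controls after heat shock. The change of that probeset differed from that of the brightest (difference of log2 changes 0.69 ± 0.18 SE, adjusted p = 0.0451).

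Srsf1, Srsf2, Srsf3 and Srsf6 showed changes that depended on the probeset. Srsf1, which binds exonic enhancers, was lower after heat shock on 1452430_s_at, a probeset that may also bind other transcripts, with 9.99, 10.00 and 9.95 with Lipofectamine, 8.51, 8.86 and 8.75 after heat shock, 9.74, 9.47 and 8.94 with benzyl alcohol, and 9.76, 9.89, 8.75, 9.80 and 10.27 in control cells. There the heat shock arrays overlapped control array 3 only, and the log2 difference was -0.99 ± 0.24 (SE, adjusted p = 0.031). It was -1.28 without control arrays 1 and 3 (adjusted p = 1.63e-06) and -0.55 without control arrays 2, 4 and 5 (adjusted p = 0.16). On another probeset, 1428100_at, Srsf1 log2 signals were 7.85, 8.09 and 7.59 with Lipofectamine, 8.07, 7.98 and 7.96 after heat shock, 8.66, 8.65 and 8.47 with benzyl alcohol, and 8.01, 8.88, 8.13, 8.71 and 8.81 in control cells. The Lipofectamine arrays overlapped control arrays 1 and 3 and lay below control arrays 2, 4 and 5. Its Lipofectamine change, -0.67, differed from that of the brightest probeset, 0.04 (difference of log2 changes -0.70 ± 0.16 SE, adjusted p = 0.0265).

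Srsf2, a protein of nuclear speckles, was lower after heat shock on 1415807_s_at. That probeset had log2 signals of 10.56, 10.82 and 10.43 with Lipofectamine, 9.91, 9.90 and 9.76 after heat shock, 10.61, 10.64 and 10.64 with benzyl alcohol, and 10.32, 10.61, 10.06, 10.79 and 10.89 in control cells. All heat shock values were below the controls, with -0.67 ± 0.17 (SE, adjusted p = 0.032), and the call was not made without Lipofectamine array 1 or heat shock array 1, 2 or 3 or control array 2, 4 or 5 (highest adjusted p 0.141). The difference was -0.90 without control arrays 1 and 3 (adjusted p = 2.96e-05) and -0.33 without control arrays 2, 4 and 5 (adjusted p = 0.211). Its probeset 1427816_at stayed at 9.25, 9.07 and 9.43 with Lipofectamine, 9.30, 9.19 and 9.23 after heat shock, 9.16, 9.24 and 9.10 with benzyl alcohol, and 9.26, 9.19, 8.79, 9.21 and 9.14 in control cells. Here heat shock and control arrays overlapped, and the change differed from that of the brightest Srsf2 probeset, -0.53 (difference of log2 changes 0.66 ± 0.15 SE, adjusted p = 0.0313).

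Srsf3, the smallest SR protein, had log2 signals on 1416151_at of 7.28, 7.61 and 6.92 with Lipofectamine, 7.59, 7.79 and 7.63 after heat shock, 8.63, 7.69 and 8.52 with benzyl alcohol, and 7.05, 8.04, 7.75, 8.50 and 8.67 in control cells. The Lipofectamine arrays overlapped control array 1 and lay below the other controls. The change there, -0.73, differed from 0.18 on the brightest Srsf3 probeset (difference of log2 changes -0.92 ± 0.23 SE, adjusted p = 0.0385), although neither passed against control. Srsf6, an SR protein that binds exonic enhancers, had 9.97, 10.11 and 9.66 with Lipofectamine, 9.98, 9.87 and 9.70 after heat shock, 10.14, 10.15 and 9.98 with benzyl alcohol, and 10.14, 10.63, 10.23, 10.78 and 10.64 in control cells on 1416721_s_at. The Lipofectamine and heat shock arrays lay below the controls on it. After heat shock this probeset passed (log2 difference -0.63 ± 0.15 SE, adjusted p = 0.0303), and it was -0.83 without control arrays 1 and 3 (adjusted p = 9.46e-05) and -0.34 without control arrays 2, 4 and 5 (adjusted p = 0.22). With Lipofectamine its change, -0.57, differed from 0.19 on the brightest (difference of log2 changes -0.76 ± 0.16 SE, adjusted p = 0.0153). Srsf4, Srsf9, Srsf11 and Tra2a passed on no probeset in a comparison with control, and Tra2b, which binds GAA-rich exons, passed there only on 1419543_a_at after heat shock (log2 difference -0.56 ± 0.15 SE, adjusted p = 0.0403), with -0.67 without control arrays 1 and 3 (adjusted p = 0.00166) and -0.39 without control arrays 2, 4 and 5 (adjusted p = 0.117).

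**Figure D4:**
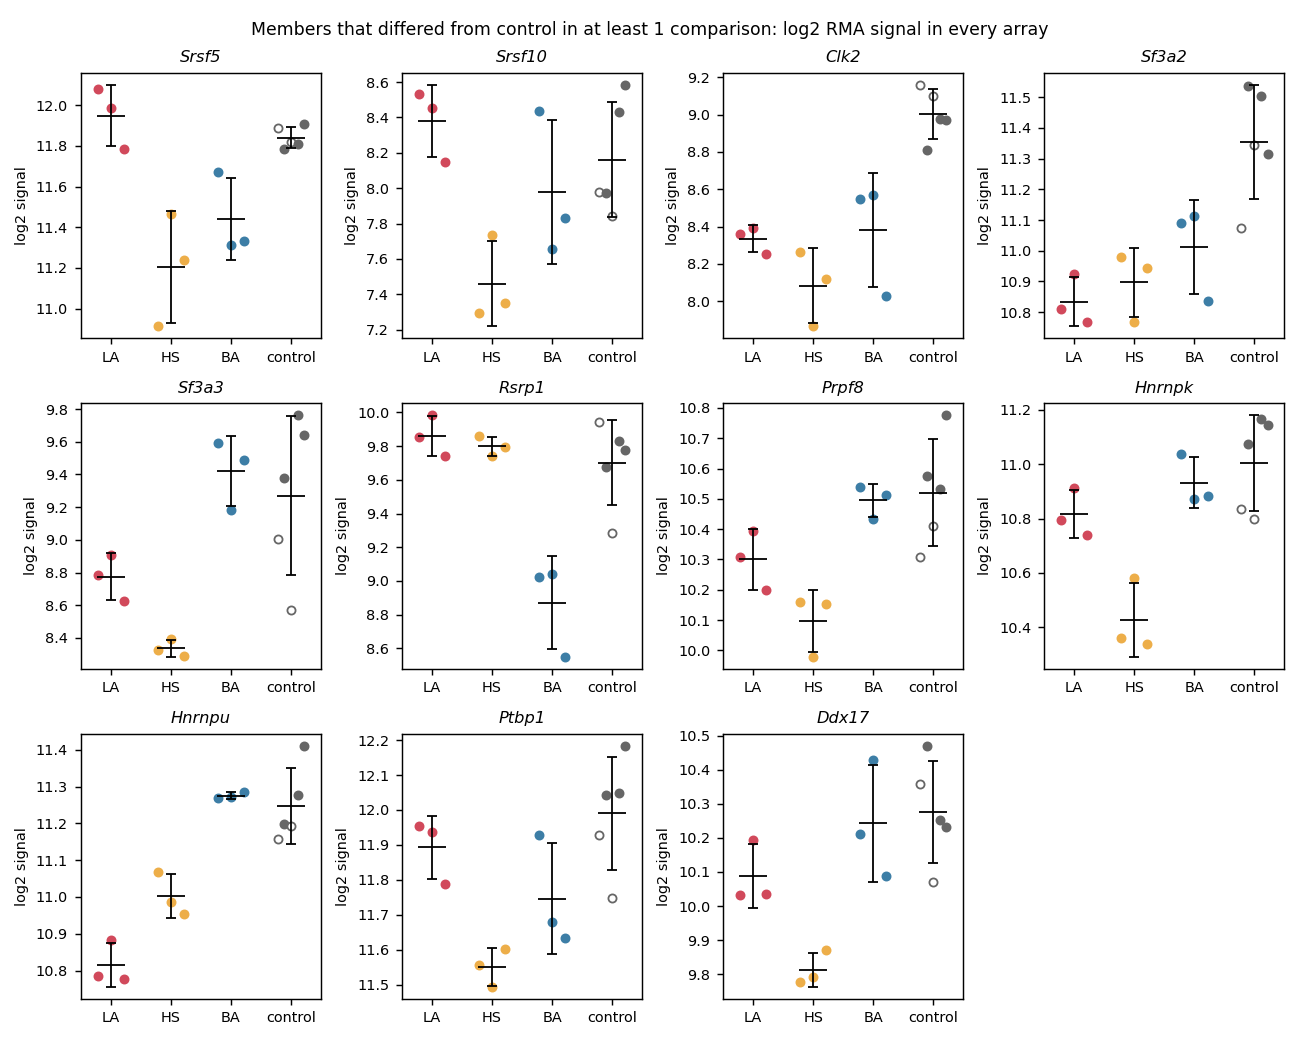
Log2 signal in every array (points) of the 11 members whose brightest probeset passed in a comparison with control, with the mean and SD of each group, for Lipofectamine (LA), heat shock (HS), benzyl alcohol (BA) and control, where open circles are control arrays 1 and 3. The heat shock points of Srsf5, Srsf10, Sf3a3, Prpf8, Hnrnpk, Ptbp1 and Ddx17 lie below all 5 controls, and those of benzyl alcohol do so in Rsrp1.

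Of the 10 factors that define the branch point and the 3′ splice site, set against control, Sf3a2 was lower with Lipofectamine and after heat shock, and Sf3a3 after heat shock. Both are SF3A subunits of the U2 snRNP. Sf3a2 log2 signals were 10.81, 10.92 and 10.77 with Lipofectamine, 10.98, 10.77 and 10.94 after heat shock, 11.09, 11.11 and 10.84 with benzyl alcohol, and 11.07, 11.54, 11.34, 11.51 and 11.31 in control cells. All Lipofectamine and heat shock arrays lay below all control arrays. Sf3a2 fell 1.43-fold with Lipofectamine (log2 difference -0.52 ± 0.11 SE, adjusted p = 0.0191) and 1.37-fold after heat shock (log2 difference -0.46 ± 0.11 SE, adjusted p = 0.0305). The Lipofectamine call was not made without Lipofectamine array 1 or 3 or control array 4 (highest adjusted p 0.0981), and that of heat shock without Lipofectamine array 1 or heat shock array 1, 2 or 3 or control array 2, 4 or 5 (highest adjusted p 0.168). With Lipofectamine the difference was -0.62 without control arrays 1 and 3 (adjusted p = 0.000458) and -0.37 without control arrays 2, 4 and 5 (adjusted p = 0.132). After heat shock it was -0.56 without control arrays 1 and 3 (adjusted p = 0.00104) and -0.31 without control arrays 2, 4 and 5 (adjusted p = 0.205). This probeset, 1455546_s_at, is of a kind that may bind other transcripts too. The dimmer Sf3a2 probeset 1450576_a_at had 8.17, 8.05 and 8.27 with Lipofectamine, 8.18, 7.83 and 7.86 after heat shock, 7.53, 7.97 and 7.44 with benzyl alcohol, and 8.37, 8.48, 8.14, 8.45 and 8.21 in control cells. All benzyl alcohol arrays lay below the controls on it, with -0.68 ± 0.13 (SE, adjusted p = 0.0138), and this call was not made without benzyl alcohol array 1 or 3 (highest adjusted p 0.111). It was -0.73 without control arrays 1 and 3 (adjusted p = 0.00959) and -0.61 without control arrays 2, 4 and 5 (adjusted p = 0.0218).

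Sf3a3 log2 signals were 8.79, 8.91 and 8.63 with Lipofectamine, 8.33, 8.39 and 8.29 after heat shock, 9.59, 9.18 and 9.49 with benzyl alcohol, and 9.0, 9.38, 8.57, 9.76 and 9.64 in control cells. Heat shock left all 3 arrays below the controls, which spread over 8.57 to 9.76. Sf3a3 fell 1.91-fold after heat shock (log2 difference -0.93 ± 0.21 SE, adjusted p = 0.0241), and it was -1.26 without control arrays 1 and 3 (adjusted p = 7.54e-07) and -0.45 without control arrays 2, 4 and 5 (adjusted p = 0.0959). Without heat shock array 1, 2 or 3 or control array 4 or 5 (highest adjusted p 0.104) the call was not made. On its other probeset, 1423811_at, the signals were 8.10, 8.22 and 7.73 with Lipofectamine, 8.23, 8.26 and 8.19 after heat shock, 8.89, 8.62 and 8.94 with benzyl alcohol, and 8.39, 8.58, 8.34, 8.71 and 8.67 in control cells. There both Lipofectamine and heat shock arrays lay below the controls, and Lipofectamine passed (log2 difference -0.52 ± 0.12 SE, adjusted p = 0.0281), with -0.63 without control arrays 1 and 3 (adjusted p = 0.000935) and -0.35 without control arrays 2, 4 and 5 (adjusted p = 0.211). That call was not made without Lipofectamine array 1 or 3 or control array 2, 4 or 5 (highest adjusted p 0.122). The 2 probesets differed in their heat shock change (difference of log2 changes 0.62 ± 0.16 SE, adjusted p = 0.0444).

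Sf3b1, the SF3B subunit that contacts the branch point, gave the largest fall of a member probeset with Lipofectamine. On 1418561_at, Sf3b1 log2 signals were 5.90, 6.28 and 5.55 with Lipofectamine, 7.19, 7.16 and 6.80 after heat shock, 7.53, 7.17 and 7.58 with benzyl alcohol, and 6.81, 7.65, 7.22, 7.80 and 7.80 in control cells. The Lipofectamine arrays lay below all other arrays. The log2 difference was -1.55 ± 0.22 (SE, adjusted p = 0.00241), it was -1.84 without control arrays 1 and 3 (adjusted p = 2.6e-07) and -1.10 without control arrays 2, 4 and 5 (adjusted p = 0.00344), and it stood when any single array was dropped. It was also lower with Lipofectamine than after heat shock (log2 difference -1.14 ± 0.25 SE, adjusted p = 0.0174). The brightest Sf3b1 probeset, 1449138_at, had a log2 difference of -0.10 ± 0.10, and the difference between both was -1.45 ± 0.23 SE on the log2 scale (adjusted p = 0.00257). Sf1, the branch point binding protein, passed with benzyl alcohol on 1422321_a_at alone. Log2 signals of this Sf1 probeset were 8.46, 8.61 and 8.36 with Lipofectamine, 8.36, 7.85 and 7.92 after heat shock, 7.94, 7.72 and 7.63 with benzyl alcohol, and 8.60, 8.42, 8.53, 8.48 and 8.31 in control cells. The benzyl alcohol arrays lay below all controls (log2 difference -0.70 ± 0.12 SE, adjusted p = 0.00718), and this was -0.64 without control arrays 1 and 3 (adjusted p = 0.0145) and -0.80 without control arrays 2, 4 and 5 (adjusted p = 0.00257). It was not called without benzyl alcohol array 3 (highest adjusted p 0.0571). Its change differed from that of the brightest Sf1 probeset with benzyl alcohol (difference of log2 changes -0.66 ± 0.11 SE, adjusted p = 0.0156) and after heat shock (difference of log2 changes -0.50 ± 0.12 SE, adjusted p = 0.0323). Sf3a1, Sf3b3, Sf3b4, U2af1 and U2af2 passed on no probeset against control, with brightest values from -0.37 for U2af1 to 0.32 for Sf3b3 with Lipofectamine, and Sf3b2 passed there only on 1456352_a_at after heat shock (log2 difference -0.42 ± 0.09 SE, adjusted p = 0.0213), with -0.45 without control arrays 1 and 3 (adjusted p = 0.0055) and -0.38 without control arrays 2, 4 and 5 (adjusted p = 0.117).

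Of the 4 measured U1 and 5′ splice site factors, 0 passed against control on the brightest probeset. Luc7l2, a mammalian relative of the yeast U1 protein Luc7, parted between probesets. On 1436766_at, Luc7l2 log2 signals were 6.67, 6.70 and 6.65 with Lipofectamine, 5.14, 5.69 and 5.58 after heat shock, 7.19, 6.75 and 6.48 with benzyl alcohol, and 7.61, 6.44, 7.60, 6.67 and 6.88 in control cells. All 3 heat shock arrays lay below all others, with -1.57 ± 0.24 (SE, adjusted p = 0.00351), which was -1.19 without control arrays 1 and 3 (adjusted p = 8.35e-06) and -2.14 without control arrays 2, 4 and 5 (adjusted p = 3.6e-07) and stood when any single array was dropped. On 1436767_at they were 6.28, 6.87 and 6.78 with Lipofectamine, 5.94, 6.12 and 6.32 after heat shock, 6.57, 6.85 and 6.30 with benzyl alcohol, and 7.52, 6.75, 7.03, 6.61 and 6.93 in control cells. Heat shock arrays were again below all controls (log2 difference -0.85 ± 0.19 SE, adjusted p = 0.0229), and the difference was -0.64 without control arrays 1 and 3 (adjusted p = 0.00433) and -1.15 without control arrays 2, 4 and 5 (adjusted p = 0.00261), though this call was not made without heat shock array 1, 2 or 3 (highest adjusted p 0.106). On 1427087_at, by contrast, Luc7l2 log2 signals were 8.75, 8.93 and 8.35 with Lipofectamine, 7.86, 7.95 and 7.88 after heat shock, 7.82, 6.94 and 7.90 with benzyl alcohol, and 7.77, 7.38, 8.14, 7.94 and 7.75 in control cells. The Lipofectamine arrays lay above all others there, with 0.88 ± 0.16 (SE, adjusted p = 0.00822), which was 0.98 without control arrays 1 and 3 (adjusted p = 0.000132) and 0.72 without control arrays 2, 4 and 5 (adjusted p = 0.0175) and was not called without Lipofectamine array 1 (highest adjusted p 0.0567). The brightest Luc7l2 probeset had log2 differences of 0.31 ± 0.13 with Lipofectamine and 0.06 ± 0.13 after heat shock. The heat shock changes of 1436766_at and 1436767_at differed from it (difference of log2 changes -1.63 ± 0.22 SE, adjusted p = 0.00291 and difference of log2 changes -0.91 ± 0.18 SE, adjusted p = 0.0154), and so did the Lipofectamine change of 1427087_at (difference of log2 changes 0.57 ± 0.14 SE, adjusted p = 0.0368). Luc7l, Luc7l3 and Snrnp70, a protein of the U1 particle, passed on no probeset against control.

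Among the 7 RBM and RS-rich proteins, brightest probesets passed against control only for Rsrp1 with benzyl alcohol. After heat shock 11 of their 32 probesets were lower and 1 was higher, where 4.91% of all probesets were lower and 1.05% higher. These were in Rbm39, Rbm5, Srrm1 and Son and, for the higher one, Rsrp1. Rsrp1 is an arginine and serine rich protein. Rsrp1 log2 signals on the brightest probeset, 1448538_a_at, were 9.86, 9.98 and 9.74 with Lipofectamine, 9.86, 9.74 and 9.80 after heat shock, 9.02, 9.04 and 8.55 with benzyl alcohol, and 9.94, 9.67, 9.29, 9.83 and 9.78 in control cells. All benzyl alcohol arrays lay below all others. Rsrp1 fell 1.78-fold with benzyl alcohol (log2 difference -0.83 ± 0.14 SE, adjusted p = 0.00707), and this was -0.89 without control arrays 1 and 3 (adjusted p = 0.000936) and -0.74 without control arrays 2, 4 and 5 (adjusted p = 0.0126). It was not called without benzyl alcohol array 3 (highest adjusted p 0.0551). It was also lower than with Lipofectamine (log2 difference -0.99 ± 0.16 SE, adjusted p = 0.00157) and lower than after heat shock (log2 difference -0.93 ± 0.16 SE, adjusted p = 0.00477). The probeset 1417001_a_at had 7.68, 7.87 and 7.62 with Lipofectamine, 7.81, 7.70 and 7.90 after heat shock, 7.55, 7.39 and 7.54 with benzyl alcohol, and 7.93, 7.39, 7.63, 7.54 and 7.35 in control cells. Benzyl alcohol and control arrays overlapped there. It did not pass with benzyl alcohol, and its change differed from that of the brightest (difference of log2 changes 0.76 ± 0.16 SE, adjusted p = 0.0368).

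The dimmest Rsrp1 probeset, 1435357_at, went another way. Its log2 signals were 5.71, 5.66 and 5.62 with Lipofectamine, 7.22, 7.08 and 7.04 after heat shock, 6.02, 5.80 and 6.37 with benzyl alcohol, and 6.19, 5.99, 6.12, 6.15 and 5.90 in control cells. On this one, heat shock arrays lay above all others and the Lipofectamine arrays below all others. It rose 2.07-fold after heat shock (log2 difference 1.05 ± 0.09 SE, adjusted p = 3.16e-05), and this was 1.10 without control arrays 1 and 3 (adjusted p = 9.45e-07) and 0.96 without control arrays 2, 4 and 5 (adjusted p = 0.000319) and stood when any single array was dropped. With Lipofectamine it was lower (log2 difference -0.40 ± 0.09 SE, adjusted p = 0.026), a call not made without Lipofectamine array 1, 2 or 3 or control array 4 (highest adjusted p 0.0972). With Lipofectamine it was -0.35 without control arrays 1 and 3 (adjusted p = 0.0268) and -0.49 without control arrays 2, 4 and 5 (adjusted p = 0.0276). Its change differed from that of the brightest Rsrp1 probeset after heat shock (difference of log2 changes 0.95 ± 0.14 SE, adjusted p = 0.00544) and with Lipofectamine (difference of log2 changes -0.56 ± 0.14 SE, adjusted p = 0.0414).

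Rbm39, a U2AF-like splicing factor, had 9 probesets. The brightest passed in no comparison with control, at 0.22 ± 0.15 with Lipofectamine and -0.31 ± 0.15 after heat shock. On 1446147_at, Rbm39 log2 signals were 7.59, 8.07 and 7.92 with Lipofectamine, 6.53, 6.31 and 6.60 after heat shock, 7.35, 6.86 and 7.33 with benzyl alcohol, and 7.50, 7.28, 7.39, 7.06 and 7.28 in control cells. The Lipofectamine arrays lay above all controls and heat shock arrays below all controls. This was 0.56 ± 0.13 (SE, adjusted p = 0.0253) with Lipofectamine and -0.82 ± 0.13 (SE, adjusted p = 0.00358) after heat shock. On 1446148_x_at the signals were 7.42, 7.67 and 7.62 with Lipofectamine, 6.28, 6.08 and 6.43 after heat shock, 7.17, 6.62 and 6.85 with benzyl alcohol, and 7.12, 6.74, 7.07, 6.90 and 7.12 in control cells. The groups fell in the same order, with 0.58 ± 0.12 (SE, adjusted p = 0.0135) and -0.72 ± 0.12 (SE, adjusted p = 0.00439). Both heat shock calls stood when any single array was dropped, and the Lipofectamine call on 1446147_at was not made without Lipofectamine array 2 or 3 or control array 4 or 5 (highest adjusted p 0.0986) and that on 1446148_x_at without Lipofectamine array 2 or 3 (highest adjusted p 0.0583). The Lipofectamine difference on 1446147_at was 0.65 without control arrays 1 and 3 (adjusted p = 0.00141) and 0.42 without control arrays 2, 4 and 5 (adjusted p = 0.145). After heat shock it was -0.73 without control arrays 1 and 3 (adjusted p = 0.000482) and -0.97 without control arrays 2, 4 and 5 (adjusted p = 0.00188). On 1446148_x_at the Lipofectamine difference was 0.65 without control arrays 1 and 3 (adjusted p = 0.00101) and 0.48 without control arrays 2, 4 and 5 (adjusted p = 0.0548), and that of heat shock was -0.65 without control arrays 1 and 3 (adjusted p = 0.000912) and -0.83 without control arrays 2, 4 and 5 (adjusted p = 0.00274). Between Lipofectamine and heat shock arrays the log2 difference was 1.38 ± 0.14 (SE, adjusted p = 0.000153) on the first and 1.31 ± 0.13 (SE, adjusted p = 0.000114) on the second. With Lipofectamine 1442745_x_at was higher too (log2 difference 0.60 ± 0.16 SE, adjusted p = 0.0477), with 0.85 without control arrays 1 and 3 (adjusted p = 2.15e-05) and 0.24 without control arrays 2, 4 and 5 (adjusted p = 0.39). After heat shock 1438397_a_at was lower too (log2 difference -0.73 ± 0.12 SE, adjusted p = 0.00613), with -0.68 without control arrays 1 and 3 (adjusted p = 0.00105) and -0.81 without control arrays 2, 4 and 5 (adjusted p = 0.00654). The signals of 1420982_at were 7.53, 7.51 and 7.05 with Lipofectamine, 7.19, 7.46 and 7.64 after heat shock, 7.18, 7.07 and 6.99 with benzyl alcohol, and 7.24, 6.98, 7.40, 7.38 and 7.22 in control cells. On it the heat shock and control arrays overlapped, and its change differed from that of the brightest Rbm39 probeset (difference of log2 changes 0.49 ± 0.13 SE, adjusted p = 0.0475).

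Rbm5, an RNA-binding protein of early spliceosomes, was lower after heat shock on 2 of 4 probesets. On 1452187_at, Rbm5 log2 signals were 8.01, 7.90 and 7.72 with Lipofectamine, 6.65, 6.91 and 6.97 after heat shock, 7.48, 7.30 and 7.29 with benzyl alcohol, and 8.55, 7.63, 7.85, 7.81 and 7.76 in control cells. Heat shock arrays lay below all others, and control array 1 stood above the rest. The log2 difference was -1.07 ± 0.17 (SE, adjusted p = 0.00454), it was -0.89 without control arrays 1 and 3 (adjusted p = 2.89e-05) and -1.36 without control arrays 2, 4 and 5 (adjusted p = 0.000494), and it stood when any single array was dropped. It exceeded that of the brightest Rbm5 probeset, -0.37 (difference of log2 changes -0.71 ± 0.18 SE, adjusted p = 0.0378). The other lower Rbm5 probeset, 1438069_a_at (log2 difference -1.25 ± 0.33 SE, adjusted p = 0.041), was -0.94 without control arrays 1 and 3 (adjusted p = 0.0161) and -1.72 without control arrays 2, 4 and 5 (adjusted p = 0.000913). Son, a large scaffold of nuclear speckles, was lower after heat shock on 5 of 6 probesets, with log2 differences from -0.88 on 1420951_a_at to -0.50 on 1437924_at, while the brightest, 1420952_at, had -0.11 ± 0.14 (SE, adjusted p = 0.656). On 1420951_a_at, Son log2 signals were 7.46, 7.45 and 7.33 with Lipofectamine, 6.20, 6.05 and 6.22 after heat shock, 6.84, 6.35 and 6.30 with benzyl alcohol, and 7.26, 7.14, 6.58, 7.06 and 7.15 in control cells. Heat shock arrays lay below all controls (log2 difference -0.88 ± 0.13 SE, adjusted p = 0.00318), which was -0.96 without control arrays 1 and 3 (adjusted p = 2.8e-06) and -0.77 without control arrays 2, 4 and 5 (adjusted p = 0.0169) and stood when any single array was dropped. Of these 5 Son calls all stood without control arrays 1 and 3, and without control arrays 2, 4 and 5 those on 1420951_a_at, 1439074_a_at and 1456630_x_at did. Srrm1 was lower after heat shock on 1420934_a_at (log2 difference -0.49 ± 0.11 SE, adjusted p = 0.0232), with -0.45 without control arrays 1 and 3 (adjusted p = 0.0121) and -0.54 without control arrays 2, 4 and 5 (adjusted p = 0.0308). Rbm25 was higher with Lipofectamine on 1428908_at (log2 difference 0.65 ± 0.16 SE, adjusted p = 0.0351), with 0.62 without control arrays 1 and 3 (adjusted p = 0.013) and 0.70 without control arrays 2, 4 and 5 (adjusted p = 0.0216), and Srrm2 did not pass against control.

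**Figure D5:**
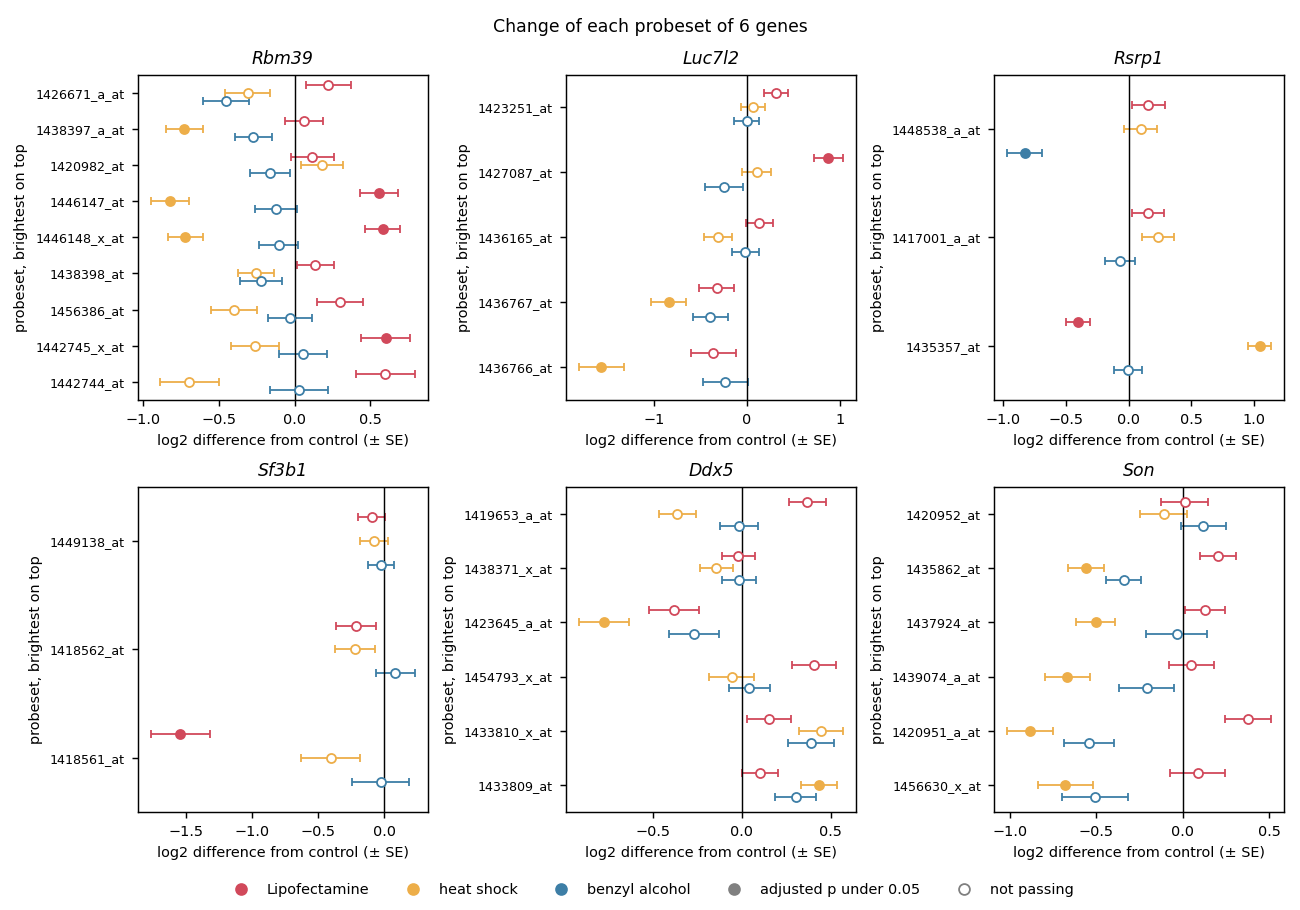
Log2 difference from control ± SE of every probeset of Rbm39, Luc7l2, Rsrp1, Sf3b1, Ddx5 and Son, brightest on top, for Lipofectamine, heat shock and benzyl alcohol, with filled points for an adjusted p under 0.05. The heat shock values reach from -1.57 to 0.10 in Luc7l2 and from 0.10 to 1.05 in Rsrp1, and 1 Sf3b1 probeset stands at -1.55 with Lipofectamine.

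Of the 4 core PRPF proteins only Prpf8 passed against control on the brightest probeset, the large protein at the heart of the spliceosome. Prpf8 log2 signals were 10.31, 10.40 and 10.20 with Lipofectamine, 10.16, 9.98 and 10.15 after heat shock, 10.54, 10.43 and 10.51 with benzyl alcohol, and 10.31, 10.58, 10.41, 10.53 and 10.78 in control cells. All heat shock arrays lay below the controls, the nearest being control array 1. It fell 1.34-fold (log2 difference -0.42 ± 0.11 SE, adjusted p = 0.0393), was -0.53 without control arrays 1 and 3 (adjusted p = 0.00166) and -0.26 without control arrays 2, 4 and 5 (adjusted p = 0.259), and was not called without Lipofectamine array 1 or heat shock array 1, 2 or 3 or control array 2, 4 or 5 (highest adjusted p 0.193). Prpf19, the ubiquitin ligase of the spliceosome, passed with Lipofectamine on its 2 dimmer probesets, 1449635_at (log2 difference -0.42 ± 0.11 SE, adjusted p = 0.0464) and 1460633_at (log2 difference -0.46 ± 0.12 SE, adjusted p = 0.0392), and its brightest had -0.38 ± 0.13 (SE, adjusted p = 0.109). The first was -0.50 without control arrays 1 and 3 (adjusted p = 0.00408) and -0.29 without control arrays 2, 4 and 5 (adjusted p = 0.279), and the second -0.56 without control arrays 1 and 3 (adjusted p = 0.00224) and -0.31 without control arrays 2, 4 and 5 (adjusted p = 0.236). Prpf38b log2 signals on 1428674_at were 8.74, 8.99 and 8.73 with Lipofectamine, 8.78, 8.52 and 8.61 after heat shock, 8.71, 8.55 and 8.81 with benzyl alcohol, and 8.57, 8.60, 8.25, 8.61 and 8.68 in control cells. On this probeset Lipofectamine arrays were above all controls, and its change, 0.28, differed from -0.27 on the brightest (difference of log2 changes 0.55 ± 0.14 SE, adjusted p = 0.0362), though neither passed. Prpf3, of the tri-snRNP, passed in none against control.

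Among the 10 hnRNP proteins and Ptbp1, which coat pre-mRNA and often oppose SR proteins, set against control, Hnrnpu was lower with Lipofectamine and Hnrnpk and Ptbp1 were lower after heat shock. Hnrnpu log2 signals were 10.79, 10.88 and 10.78 with Lipofectamine, 11.07, 10.99 and 10.95 after heat shock, 11.27, 11.27 and 11.29 with benzyl alcohol, and 11.16, 11.20, 11.19, 11.28 and 11.41 in control cells. All Lipofectamine arrays lay below all other arrays. Hnrnpu fell 1.35-fold (log2 difference -0.43 ± 0.09 SE, adjusted p = 0.0145), it was -0.48 without control arrays 1 and 3 (adjusted p = 0.00247) and -0.36 without control arrays 2, 4 and 5 (adjusted p = 0.103), and the call was not made without Lipofectamine array 1 or 3 (highest adjusted p 0.0898). The Hnrnpu probeset 1434391_at had 7.89, 8.12 and 8.18 with Lipofectamine, 7.91, 7.96 and 8.09 after heat shock, 7.79, 7.70 and 7.78 with benzyl alcohol, and 7.97, 8.06, 7.88, 7.95 and 7.77 in control cells. There Lipofectamine and control arrays overlapped, and the change differed from that of the brightest (difference of log2 changes 0.57 ± 0.13 SE, adjusted p = 0.0273). Another Hnrnpu probeset, 1423051_at, passed against control only after heat shock (log2 difference -0.49 ± 0.11 SE, adjusted p = 0.0235), with -0.57 without control arrays 1 and 3 (adjusted p = 0.00149) and -0.38 without control arrays 2, 4 and 5 (adjusted p = 0.13).

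Hnrnpk binds C-rich RNA. Hnrnpk log2 signals were 10.80, 10.91 and 10.74 with Lipofectamine, 10.36, 10.58 and 10.34 after heat shock, 11.04, 10.87 and 10.88 with benzyl alcohol, and 10.83, 11.08, 10.80, 11.17 and 11.14 in control cells. Each heat shock array lay below all other arrays. Hnrnpk fell 1.49-fold (log2 difference -0.58 ± 0.11 SE, adjusted p = 0.0117), it was -0.70 without control arrays 1 and 3 (adjusted p = 0.000109) and -0.39 without control arrays 2, 4 and 5 (adjusted p = 0.1), and the call was not made without heat shock array 1 or 3 (highest adjusted p 0.0745). Its probeset 1448176_a_at stayed at 10.70, 10.87 and 10.67 with Lipofectamine, 10.78, 10.78 and 10.77 after heat shock, 10.80, 10.66 and 10.92 with benzyl alcohol, and 10.87, 10.69, 10.88, 10.78 and 10.86 in control cells. All groups overlapped on that one, and its change differed from that of the brightest (difference of log2 changes 0.54 ± 0.13 SE, adjusted p = 0.0389). Ptbp1 represses exons at pyrimidine tracts. Ptbp1 log2 signals were 11.95, 11.94 and 11.79 with Lipofectamine, 11.56, 11.49 and 11.60 after heat shock, 11.93, 11.68 and 11.63 with benzyl alcohol, and 11.93, 12.04, 11.75, 12.05 and 12.18 in control cells. All heat shock values lay below those of other arrays, and Ptbp1 fell 1.36-fold (log2 difference -0.44 ± 0.10 SE, adjusted p = 0.0271). It was -0.54 without control arrays 1 and 3 (adjusted p = 0.000797) and -0.29 without control arrays 2, 4 and 5 (adjusted p = 0.214) and was not called without heat shock array 1, 2 or 3 or control array 4 or 5 (highest adjusted p 0.134). Hnrnpa2b1 passed against control only on 1433830_at after heat shock (log2 difference -0.57 ± 0.12 SE, adjusted p = 0.0203), with -0.64 without control arrays 1 and 3 (adjusted p = 0.000796) and -0.46 without control arrays 2, 4 and 5 (adjusted p = 0.112). The genes Hnrnpa1, Hnrnpc, Hnrnpd, Hnrnph1, Hnrnpl and Hnrnpm passed on no probeset against control. A further 3 Hnrnpa1 probesets carry 4 symbols each and were not used.

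The DEAD-box helicases Ddx5 and Ddx17 unwind RNA and bind hnRNP proteins. Ddx17 log2 signals were 10.03, 10.20 and 10.04 with Lipofectamine, 9.78, 9.79 and 9.87 after heat shock, 10.21, 10.43 and 10.09 with benzyl alcohol, and 10.36, 10.47, 10.07, 10.25 and 10.23 in control cells. Again heat shock arrays lay below all other arrays. Ddx17 fell 1.38-fold (log2 difference -0.46 ± 0.10 SE, adjusted p = 0.0195), it was -0.51 without control arrays 1 and 3 (adjusted p = 0.00198) and -0.40 without control arrays 2, 4 and 5 (adjusted p = 0.0959), and it was not called without heat shock array 1, 2 or 3 (highest adjusted p 0.0998). Ddx5 log2 signals on the brightest probeset were 11.20, 11.35 and 11.11 with Lipofectamine, 10.37, 10.58 and 10.51 after heat shock, 10.98, 10.65 and 10.87 with benzyl alcohol, and 10.95, 10.64, 10.86, 11 and 10.79 in control cells. Lipofectamine arrays lay above all controls and heat shock arrays below them, at 0.37 ± 0.10 (SE, adjusted p = 0.0595) and -0.36 ± 0.10 (SE, adjusted p = 0.0556), neither of which passed. Directly, Ddx5 was higher with Lipofectamine than after heat shock (log2 difference 0.73 ± 0.12 SE, adjusted p = 0.0034), and this stood when any single array was dropped.

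Other Ddx5 probesets went in both directions. On 1423645_a_at the log2 signals were 9.09, 9.22 and 8.72 with Lipofectamine, 8.36, 8.66 and 8.83 after heat shock, 9.31, 8.92 and 9.13 with benzyl alcohol, and 9.34, 9.51, 9.12, 9.39 and 9.59 in control cells. Heat shock arrays lay below all controls (log2 difference -0.78 ± 0.14 SE, adjusted p = 0.00909), a call not made without heat shock array 1 (highest adjusted p 0.057), and the difference was -0.88 without control arrays 1 and 3 (adjusted p = 0.000178) and -0.62 without control arrays 2, 4 and 5 (adjusted p = 0.0501). With Lipofectamine its change differed from that of the brightest (difference of log2 changes -0.75 ± 0.15 SE, adjusted p = 0.015). On 1433809_at they were 7.50, 7.26 and 7.66 with Lipofectamine, 7.69, 7.84 and 7.89 after heat shock, 7.39, 7.83 and 7.81 with benzyl alcohol, and 7.32, 7.36, 7.30, 7.45 and 7.44 in control cells. Here heat shock arrays lay above all controls (log2 difference 0.43 ± 0.10 SE, adjusted p = 0.0274), a call not made without heat shock array 1, 2 or 3 or control array 4 (highest adjusted p 0.134), and the difference was 0.39 without control arrays 1 and 3 (adjusted p = 0.021) and 0.50 without control arrays 2, 4 and 5 (adjusted p = 0.0543). On 1433810_x_at they were 7.62, 7.25 and 7.64 with Lipofectamine, 7.70, 7.75 and 7.92 after heat shock, 7.50, 7.89 and 7.84 with benzyl alcohol, and 7.51, 7.47, 7.30, 7.05 and 7.42 in control cells, with heat shock arrays above the controls and no call. The heat shock changes of these last 2 Ddx5 probesets differed from that of the brightest (difference of log2 changes 0.80 ± 0.14 SE, adjusted p = 0.00946 and difference of log2 changes 0.81 ± 0.17 SE, adjusted p = 0.0208). Where in the transcripts the probesets lie was not analysed here.

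Counted over all 152 member probesets, 2 were higher and 33 were lower after heat shock. Of all probesets 1.05% were higher there and 4.91% lower. The calls were in 24 genes, and the share of all genes with any probeset called was not counted. With Lipofectamine 5 were higher and 8 lower, where 1.78% of all probesets were higher and 3.1% lower. With benzyl alcohol 0 were higher and 4 lower, where 0.689% of all probesets were higher and 0.698% lower. Of the 35 calls with heat shock, 7 stood when any single array was dropped, in Clk2, Luc7l2, Rbm39 (2 probesets), Rbm5, Rsrp1 and Son. Of the 13 with Lipofectamine 2 did, in Clk2 and Sf3b1, and of the 4 with benzyl alcohol (Clk2, Rsrp1, Sf1 and Sf3a2) 0 did, benzyl alcohol array 3 being needed for each. Without control arrays 1 and 3, 35, 13 and 4 of these calls stood, and without control arrays 2, 4 and 5 it was 14, 5 and 4. Outside Clk2, the calls that stood when any single array was dropped were on probesets dimmer than the brightest of their gene. Their mean log2 signals were 6.20 (Rsrp1) to 7.56 (Rbm5), inside the 4.25 to 8.13 of the keratinocyte, fibroblast and macrophage markers. The brightest probesets of these genes did not pass in the same comparison.

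In a test of whether 2 probesets of a gene changed alike, each probeset was set against the brightest of its gene within every array. Over 97 such pairs of 37 members, 12 pairs in 10 genes differed after heat shock (12.4%), where 3.62% of all 7987 pairs did. With Lipofectamine 10 pairs in 10 genes differed (10.3%), where 3.73% of all pairs did, and with benzyl alcohol 2 did (2.06%), where 0.714% of all pairs did. All of these pairs differed without control arrays 1 and 3 too. Without control arrays 2, 4 and 5 those that did were the Lipofectamine pairs of Sf3b1 and Prpf4b, the heat shock pairs of Luc7l2 (both) and Ddx5 (1433809_at) and the benzyl alcohol pair of Sf1. Without control arrays 1 and 3 the counts were 33, 16 and 5 for heat shock, Lipofectamine and benzyl alcohol, and without control arrays 2, 4 and 5 they were 4, 4 and 6. Dropping single arrays, the heat shock count was 3 (heat shock array 1 dropped), 2 (heat shock array 2), 3 (heat shock array 3), 5 (Lipofectamine array 1), 28 (control array 3), 6 (control array 4) and 7 (control array 5). The Lipofectamine count was likewise 1 (Lipofectamine array 1 dropped), 4 (Lipofectamine array 2), 1 (Lipofectamine array 3), 6 (heat shock array 1), 5 (heat shock array 2 or 3), 6 (control array 2 or 4) and 4 (control array 5). The benzyl alcohol count became 5 without control array 3, 0 without benzyl alcohol array 1 or 3, 3 without benzyl alcohol array 2, and 1 without any other array. With arrays left out, the share of all 7987 pairs that differed was not counted. Shifts in these counts thus cannot be told from shifts over all pairs.

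Lipofectamine and heat shock were then compared directly, which uses no control signal except for the spread. Here 6 members were higher and 1 was lower with Lipofectamine, where 3% of all genes were higher and 1.18% lower, and the members' median was 0.15 against -0.07 for all genes. The 6 were Srsf3 (log2 difference 0.47 ± 0.12 SE, adjusted p = 0.0384), Srsf5 (log2 difference 0.74 ± 0.13 SE, adjusted p = 0.00569), Srsf6 (log2 difference 0.46 ± 0.11 SE, adjusted p = 0.029), Srsf10 (log2 difference 0.92 ± 0.19 SE, adjusted p = 0.0147), Sf3b3 (log2 difference 0.60 ± 0.16 SE, adjusted p = 0.0393) and Ddx5, and the lower one was Clk4. Srsf3 log2 signals were 10.68, 10.99 and 10.82 with Lipofectamine, 10.37, 10.33 and 10.39 after heat shock, 10.85, 10.27 and 10.86 with benzyl alcohol, and 10.51, 10.66, 10.45, 10.75 and 10.85 in control cells. Those of Srsf6 were 11.36, 11.48 and 11.29 with Lipofectamine, 10.96, 10.88 and 10.90 after heat shock, 11.08, 10.83 and 10.62 with benzyl alcohol, and 11.08, 10.98, 11.29, 11.24 and 11.34 in control cells. In both, the 3 Lipofectamine arrays lay above the 3 heat shock arrays. Sf3b3, an SF3B subunit, had 10.21, 10.48 and 10.29 with Lipofectamine, 10.01, 9.45 and 9.71 after heat shock, 10.03, 10.12 and 9.84 with benzyl alcohol, and 9.92, 10.16, 9.71, 10.06 and 10.19 in control cells. Its Lipofectamine arrays too lay above those of heat shock. Over all probesets of members 28 were higher and 3 lower with Lipofectamine, where 4.42% of all probesets were higher and 1.3% lower, and 10 of these 31 calls stood when any single array was dropped. Those 10 were on Srsf5, Ddx5, Prpf4b (1425497_a_at), Rsrp1 (1435357_at), 4 probesets of Rbm39 and 2 of Son. The count of 7 members became 2 without Lipofectamine array 1, 3 without Lipofectamine array 2 or any 1 heat shock array, and 4 without Lipofectamine array 3. After another quantile normalization 6 were higher and 2 lower, and 53.2% of all genes called were higher, against 71.8% as deposited.

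Benzyl alcohol differed from Lipofectamine in both directions. Lipofectamine arrays correlated more with control arrays 1 and 3, and benzyl alcohol arrays with control arrays 2, 4 and 5. Treatment and that split cannot be told apart in this comparison. Compared with Lipofectamine, 5 members were higher and 6 lower with benzyl alcohol, where 7.12% of all genes were higher and 4.82% lower. Higher were Hnrnpa2b1 (log2 difference 0.72 ± 0.18 SE, adjusted p = 0.0179), U2af1 (log2 difference 0.59 ± 0.18 SE, adjusted p = 0.0461), Hnrnpu (log2 difference 0.46 ± 0.09 SE, adjusted p = 0.00556), Prpf19 (log2 difference 0.46 ± 0.14 SE, adjusted p = 0.0467) and Sf3b2 (log2 difference 0.45 ± 0.10 SE, adjusted p = 0.00792). Lower were Rsrp1, Rbm39 (log2 difference -0.68 ± 0.17 SE, adjusted p = 0.0181), Luc7l (log2 difference -0.66 ± 0.13 SE, adjusted p = 0.00569), Srsf6 (log2 difference -0.53 ± 0.13 SE, adjusted p = 0.0131), Srsf5 (log2 difference -0.51 ± 0.14 SE, adjusted p = 0.0239) and Ddx5 (log2 difference -0.38 ± 0.12 SE, adjusted p = 0.0481). Luc7l, a relative of Luc7l2, had log2 signals of 9.81, 10.33 and 9.89 with Lipofectamine, 10.03, 9.70 and 9.91 after heat shock, 9.53, 9.24 and 9.28 with benzyl alcohol, and 9.74, 9.72, 9.64, 9.66 and 9.71 in control cells. All benzyl alcohol arrays lay below all others. U2af1, which reads the AG of the 3′ splice site, had 11.07, 11.12 and 10.68 with Lipofectamine, 10.71, 11.26 and 11.30 after heat shock, 11.70, 11.47 and 11.49 with benzyl alcohol, and 10.95, 11.43, 11.19, 11.60 and 11.48 in control cells. Every benzyl alcohol array lay above the Lipofectamine arrays, and 2 of the 3 were within the control range. Of these 11 calls those of Sf3b2, Luc7l, Rsrp1 and Hnrnpu stood when any single array was dropped. The count of 11 became 4 without benzyl alcohol array 3, 5 without Lipofectamine array 1 and 7 without Lipofectamine array 3. In control cells, arrays 1 and 3 minus arrays 2, 4 and 5 gave -0.62 for Hnrnpa2b1 and -0.43 for U2af1. It gave -0.16 for Prpf19, -0.12 for Hnrnpu and 0.05 for Sf3b2. For the 6 lower members it lay between -0.15 for Rsrp1 and 0.22 for Rbm39.

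Compared with heat shock, 6 members were higher and 3 lower with benzyl alcohol, where 5.35% of all genes were higher and 2.04% lower. Higher were Sf3a1 (log2 difference 0.42 ± 0.11 SE, adjusted p = 0.0352), Sf3a3 (log2 difference 1.08 ± 0.23 SE, adjusted p = 0.0148), Prpf8 (log2 difference 0.40 ± 0.12 SE, adjusted p = 0.0499), Hnrnpk (log2 difference 0.50 ± 0.12 SE, adjusted p = 0.0226), Hnrnpm (log2 difference 0.48 ± 0.13 SE, adjusted p = 0.0391) and Ddx17 (log2 difference 0.43 ± 0.12 SE, adjusted p = 0.0381). Lower were Clk4, Rsrp1 and Luc7l (log2 difference -0.53 ± 0.13 SE, adjusted p = 0.0285). Sf3a1, another SF3A subunit, had log2 signals of 9.87, 9.85 and 9.58 with Lipofectamine, 9.59, 9.58 and 9.68 after heat shock, 10.13, 9.84 and 10.14 with benzyl alcohol, and 9.91, 9.81, 9.83, 9.96 and 9.97 in control cells. Benzyl alcohol and heat shock arrays did not overlap. Of these 9 calls that of Rsrp1 stood when any single array was dropped. The count of 9 became 1 without heat shock array 1, heat shock array 3 or benzyl alcohol array 1, 2 without heat shock array 2, and 5 without Lipofectamine array 1 or benzyl alcohol array 2 or 3. After another quantile normalization 3 were higher and 3 lower, and 53.5% of all genes called were higher, against 72.4% as deposited. These 2 comparisons share the benzyl alcohol arrays. Heat shock arrays also correlated more with control arrays 1 and 3, so treatment and the split of control arrays cannot be told apart here. In control cells, arrays 1 and 3 minus arrays 2, 4 and 5 lay between -0.81 for Sf3a3 and -0.04 for Sf3a1 in the 6 higher members. It was 1.22 for Clk4, 0 for Luc7l and -0.15 for Rsrp1.

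Other genes linked to splicing, not all of them parts of the spliceosome, were taken from a list of 148, of which 117 were measured. Against control, with Lipofectamine 2 were higher (1.71%, against 1.69% of all genes) and 8 lower (6.84%, against 3.33%), among them Prpf39, a U1 factor (log2 difference 0.59 ± 0.11 SE, adjusted p = 0.0105), Hnrnpul2 (log2 difference -0.55 ± 0.10 SE, adjusted p = 0.0107), Tia1, which binds U-rich RNA (log2 difference -0.61 ± 0.12 SE, adjusted p = 0.0116), and Pnn, of the exon junction (log2 difference -1.01 ± 0.20 SE, adjusted p = 0.0136). After heat shock 0 were higher and 6 lower (5.13%, against 4.15% of all genes), among them Cwc22, which places the exon junction complex (log2 difference -0.83 ± 0.15 SE, adjusted p = 0.00896), Dyrk1a, a kinase that acts on SR proteins (log2 difference -0.70 ± 0.15 SE, adjusted p = 0.0203), Hnrnpf (log2 difference -0.74 ± 0.17 SE, adjusted p = 0.0235) and Scaf8 (log2 difference -0.57 ± 0.14 SE, adjusted p = 0.0326). With benzyl alcohol 0 were higher and 1 was lower (0.855%, against 0.694% of all genes), the cold-inducible RNA-binding protein Cirbp (log2 difference -0.57 ± 0.10 SE, adjusted p = 0.0112). All of these calls stood without control arrays 1 and 3, and without control arrays 2, 4 and 5 those of Prpf39, Tia1 and Zranb2 with Lipofectamine, of Cwc22 and Scaf8 with heat shock and of Cirbp with benzyl alcohol did. Between treatments 25 of the 117 were higher and 3 lower with benzyl alcohol than with Lipofectamine (21.4% and 2.56%, against 7.12% and 4.82% of all genes), where 5 members were higher and 6 lower. Against heat shock 11 were higher and 0 lower with benzyl alcohol (9.4%, against 5.35% of all genes higher), and 7 higher and 0 lower with Lipofectamine (5.98%, against 3% of all genes higher). Where benzyl alcohol is compared with another treatment, treatment and the split of control arrays cannot be told apart. Against control they cannot be fully told apart either. The median log2 difference of the 117 from control was -0.11 with Lipofectamine, -0.19 after heat shock and 0.04 with benzyl alcohol, beside the members' -0.10, -0.23 and -0.02.

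RefSeq promoter windows on GRCm38.p6 were searched for a heat shock element, the site of heat shock factors, because members were lower after heat shock. The element was taken as GAA, any 2 bases, TTC, any 2 bases and GAA, or the same begun with TTC, on both strands. It was found in 3 of the 53 members with a window, against 0.662% of all 27025 genes with one. The 3 are shown by 100 bases around the element, which stands in capitals, each on the minus strand. That of Tra2b (chr16:22266156-22266255) begins at position -207 from the start, that of Sf3b2 (chr19:5295410-5295509) at -10 and that of Hnrnpa2b1 (chr6:51469828-51469927) at -38.
Tra2b: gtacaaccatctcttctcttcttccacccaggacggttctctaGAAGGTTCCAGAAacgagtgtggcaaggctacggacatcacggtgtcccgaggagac
Sf3b2: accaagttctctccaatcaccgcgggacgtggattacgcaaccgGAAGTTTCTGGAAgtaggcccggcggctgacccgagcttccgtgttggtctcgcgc
Hnrnpa2b1: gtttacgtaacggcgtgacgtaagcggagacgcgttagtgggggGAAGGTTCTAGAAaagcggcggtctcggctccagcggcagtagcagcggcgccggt
Their brightest probesets had log2 differences of -0.31 ± 0.15, -0.09 ± 0.09 and -0.03 ± 0.17 after heat shock, and none passed. Another probeset of each was lower after heat shock, 1419543_a_at of Tra2b, 1456352_a_at of Sf3b2 and 1433830_at of Hnrnpa2b1, at -0.56, -0.42 and -0.57. Such calls were not rare among the members, since 24 of the 55 had any probeset called after heat shock. The share of all genes with any probeset called was not counted. None of these 3 calls stood without the larger set of control arrays. A link between the element and these calls was not tested. None of the 9 members lower on the brightest probeset after heat shock has these letters in its window, which says nothing about the factor. The promoter table has no entry for Clk1, Sf3b4, U2af2 or Luc7l.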

How the data were processed

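RNA of 14 cultures of B16-F10 cells was hybridised to Affymetrix mouse expression arrays, 1 array per sample. The authors summarized the scans by RMA, and the deposited values are log2 signals, 1 per probeset and array. GCOS 1.2 is named in the submitters' processing notes, and the version of RMA is not given in the sources used here. The values were used as deposited. Array medians lay between 7.03 and 7.12, and 64 control probesets were left out, leaving 22626. Of these 20380 carried 1 gene symbol, 691 several and 1555 none, and probesets with several symbols stood for no gene. The number of arrays limits the precision.

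Differences were fitted with limma 3.58.1 in R 4.3.3 (lmFit and eBayes). Lipofectamine against control, heat shock against control and Lipofectamine against heat shock came from 1 fit of 11 arrays, as in the study's methods, and the benzyl alcohol comparisons from a fit of all 14. P-values were adjusted by Benjamini-Hochberg over all probesets, and 0.05 was the threshold. Probesets of a gene were compared by fitting, array by array, the difference from the brightest, adjusted over all 7987 such pairs. Figures were drawn with matplotlib 3.10.9 in Python 3.11.15, and the fits were tested on simulated data. Probesets whose names end in _s_at or _x_at may bind other transcripts as well.

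The members, gene lists and alternatives were chosen with earlier results of these data known. Values in every array were given for members called against control, for Clk1 to Clk4 and for members with an unlike pair of probesets, with a few further members where a direct comparison turned on them, chosen after their values were seen. Alternatives were other sets of arrays in the fit, the threshold of the study's methods (an F-test and a pairwise p both under 0.001), a variance trend, filters on dim and cross-hybridizing probesets, other scalings, the mean of a gene's probesets, a replicate block and leaving out arrays.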

Additional observations from a re-analysis of the deposited data

Results flagged for a closer look

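Rbm5 was the member with 1 control array far from the others on a probeset named here. On 1452187_at control array 1 stood at a log2 signal of 8.55, while the nearest control was 7.85 and the lowest 7.63, a gap of 0.758 of the group's range. This was 1 of the 73 probesets looked at, and chance gives such a gap in about 5% of groups of 5. The heat shock arrays lay below every control array with and without it.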

How the results depend on the processing

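No call of a single member probeset changed direction under the alternatives that kept that probeset. The mean of a gene's probesets gives no such call. For unlike pairs and for other splicing genes, direction was followed only when either set of control arrays was left out. Counts of members and of unlike pairs of probesets did move. With only the 2 groups compared in the fit, 5 members were called with heat shock, 0 with benzyl alcohol and 15 between Lipofectamine and heat shock, and 3, 7 and 0 pairs with Lipofectamine, heat shock and benzyl alcohol. Under the threshold of the methods 3 members were called after heat shock, 3 between Lipofectamine and heat shock, 3 between benzyl alcohol and Lipofectamine and 3 between benzyl alcohol and heat shock. Without the dimmer probesets 6 were called with Lipofectamine. After another quantile normalization 5 were called with Lipofectamine, and 19 pairs with heat shock and 1 with benzyl alcohol. Without control arrays 1 and 3 it was 14 members with Lipofectamine, 23 with heat shock and 16 between the 2, and 16, 33 and 5 pairs with Lipofectamine, heat shock and benzyl alcohol. Without control arrays 2, 4 and 5 it was 7 members with Lipofectamine, 4 with heat shock, 12 with benzyl alcohol and 15 between Lipofectamine and heat shock, and 4, 4 and 6 pairs. With each array left out in turn the counts ranged over 1 to 6 members with Lipofectamine, 1 to 11 with heat shock, 0 to 2 with benzyl alcohol, 2 to 8 for Lipofectamine against heat shock, 4 to 12 for benzyl alcohol against Lipofectamine and 1 to 10 for benzyl alcohol against heat shock, and over 1 to 12, 2 to 28 and 0 to 5 pairs with Lipofectamine, heat shock and benzyl alcohol. With a replicate block 1 member each was called with Lipofectamine, heat shock and benzyl alcohol, 4 were called between Lipofectamine and heat shock, and 1, 1 and 0 pairs, but the replicate numbers do not pair the samples: deviations of the 18 same-numbered pairs of arrays correlated at -0.56 to 0.44, 3 of them over 0.1, and those of 54 other pairs at -0.65 to 0.63. The causes of these shifts were not tested. Shares of all genes called were counted only for the main fit and without either set of control arrays. Shares of all pairs were counted only for the main fit. In the other settings, whether the members moved more than all genes cannot be told. Array weights were not used, since the estimate gave 1 array a weight of 97.9 and the next 1.7. The variance trend, the filter on cross-hybridizing probesets, equal array medians, 14 arrays in 1 fit and the mean of a gene's probesets left these counts within 1.5 times.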
